A study of Mus musculus with 15 samples.

Results

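Spred1 had more RevErb binding sites than any other gene of this macrophage data set: 9 of the 1544 sites that RevErbalpha and RevErbbeta shared carried its name in the authors' table. The sites were chosen by the assigned gene name alone, and Spred1 was chosen by its number of sites, that is, by where the binding peaks of both proteins were called. The count of 9 is thus no result. A site was assigned to the nearest expressed gene start, per the file headers, and that assignment does not show that a site acts on Spred1. Spred1 encodes a membrane-bound inhibitor of the Ras to ERK kinase cascade, which carries growth factor signals such as M-CSF in macrophages. The protein is known to bring the Ras inactivator neurofibromin to the membrane. RevErbs, the products of Nr1d1 and Nr1d2, are nuclear receptors that repress transcription through corepressor complexes. Active enhancers are themselves transcribed into short RNAs, so nascent RNA at a bound site is a readout separate from the RNA of the gene.

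Binding was measured in RAW cells, a line of mouse macrophages, which expressed RevErbalpha or RevErbbeta with a biotin tag and were pulled down with streptavidin beads. A library from control RAW cells with BirA, the biotin ligase, gave the background; its column is named BirA-input and could also hold an input library. Nascent 5' ends were read by 5'GRO-seq, which captures capped nascent RNA, in RAW cells expressing tagged RevErbalpha and in control RAW cells labelled BTEV-Ctrl. Nascent RNA along genes and sites was read by GRO-seq in bone marrow derived macrophages that carried Tie2-Cre with both genes floxed (RevErbalpha flox/flox and RevErbbeta flox/flox; DKO), and in those with the same floxed alleles and no Cre (WT). Both genotypes carry the floxed alleles, and Tie2-Cre is active in endothelial cells as well as in blood cells. The background is given as C57Bl6 for every group, the marrow cells were grown with L-cell conditioned medium and M-CSF, and the labels give neither the number or age of the animals nor the number of RAW clones. Of 15 labelled samples, 1 for each group, the table gives values for 7. The command in the table's header names RAW libraries marked notx and KLA-1h, and the columns do not say which run is which, so the treatment of each binding run is not known here. The 3 runs of each RevErb and the 2 gene-level runs of each genotype were taken as repeat runs of 1 sample, so no comparison below has a replicate check and none has a p-value.

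Depth was uneven. The RevErbalpha runs held 5276592, 682651 and 598490 tags, the RevErbbeta runs 3751878, 4888686 and 780281 tags and the BirA library 10548880 tags. The 5'GRO-seq libraries held 7238710 tags with tagged RevErbalpha and 18708148 in control cells, and the gene-level GRO-seq runs 34852907 to 46649008. Nr1d1, a targeted gene, had log2 values of 9.44 and 9.56 in the runs labelled DKO and 7.91 and 7.48 in the runs labelled WT. It was thus higher in the runs labelled DKO. The value is given for the gene as a whole and does not show whether the floxed part was removed, so it does not check the genotype labels. Of 15 listed macrophage markers 7 had a common site and hence a gene value, among them Csf1r, the M-CSF receptor, and 0 of 22 markers of other cell types had one. The table holds only genes with a common site, so the absence of the others is not a measure of expression.

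All 9 sites lay upstream of the gene, between 102.1 and 159.4 kb from the start, on mouse build mm9. They filled a stretch of 57431 bp on chromosome 2 that runs from 116787692 to 116845122, and their distances all point to the same gene start at 116947186. None was at the promoter. The sites fell into close neighbours with longer gaps between: 3 of the 8 gaps between neighbouring centres were under 1 kb (781, 544 and 679 bp), and the longest was 19085 bp. Every gap exceeds the 500 bp window of 5'GRO-seq, so no tag was counted at more than 1 site there. The width of the window for GRO-seq at sites is not given in the sources used here, and neighbouring windows may overlap in that assay. No common site of another gene lay within 1 Mb. The nearest on either side were assigned to Cd44, 13999132 bp away, and to Ehd4, 3105734 bp away. In RefSeq GRCm38.p6, used for gene order only, the protein-coding neighbours of Spred1 are Tmco5 and Fam98b, and the annotated gene just before it is a long non-coding RNA, Gm39912.

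In order from the farthest to the nearest, the sites were chr2:116787692-116787848, chr2:116798053-116798209, chr2:116800779-116800935, chr2:116815171-116815327, chr2:116815952-116816108, chr2:116824658-116824814, chr2:116843743-116843899, chr2:116844287-116844443 and chr2:116844966-116845122. They lay 159416, 149055, 146329, 131937, 131156, 122450, 103365, 102821 and 102142 bp upstream of the start. Each is 157 bp wide in the table. The last 8 are in the authors' intergenic enhancer class, which has high H3K4me1 and low H3K4me3, and all 8 are in both of the deposited enhancer lists. The farthest site is the exception: its class reads H3K4me3 above H3K4me1. Promoters usually have this order of marks, but the class does not give the level of either mark, so a promoter is not shown there.

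Binding at most Spred1 sites was weak for common RevErb sites. Averaged over both proteins, the median log2 value was 4.88 at the 9 Spred1 sites, against 5.54 at the 1535 other common sites, and 5 of the 9 lay in the lowest of 5 equal groups of common sites ranked by binding. These values are log2 of tags scaled to a library of 10000000, in 157 bp. BirA values were 0.35 to 1.93 at the 9 sites, and the median excess of mean binding over BirA was 4.27, against 4.44 over all common sites. The sites were called for their binding, so these values describe the choice and are not tested. The median binding of each of the 14 other genes with 4 or more common sites was above that of Spred1.

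The strongest site was the farthest one, 159.4 kb upstream, with a mean log2 binding of 6.63, at percentile 86.7 of all common sites. Its RevErbalpha runs read 4.68, 8.01 and 6.98, its RevErbbeta runs 6.69, 7.02 and 6.42, and BirA 1.93. The deep RevErbalpha run was thus the lowest of the 6 at this site. Next came the site nearest the gene, 102.1 kb upstream, with a mean of 6.22 (percentile 76.9). Its RevErbalpha runs read 5.43, 6.47 and 7.08, its RevErbbeta runs 6.02, 6.82 and 5.49, and BirA 1.23. The third was the site 131.2 kb upstream, with a mean of 5.81 (percentile 63.3), RevErbalpha runs of 4.48, 4.75 and 7.43 and RevErbbeta runs of 6.01, 6.21 and 5.99, against 0.79 for BirA. By the mean of all runs, the strongest sites were therefore not next to one another: they lay at both ends and in the middle. That order weighs shallow and deep runs equally and is not firm. In RevErbalpha run 1, the deep one, the site at 102.1 kb was highest (5.43) and the nearby site at 103.4 kb next (5.24). RevErbbeta runs 1 and 2 were highest at 159.4 kb.

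The site at 149.1 kb had a mean of 5.30, with RevErbalpha runs of 5.02, 4.77 and 5.99, RevErbbeta runs of 4.77, 5.37 and 5.89 and a BirA value of 1.64. The remaining 5 form the lowest binding group, with means of 4.88 at 131.9 kb, 4.75 at 146.3 kb, 4.74 at 102.8 kb, 4.60 at 103.4 kb and 4.42 at 122.5 kb. Single runs varied widely at these sites. At 131.9 kb the RevErbalpha runs read 3.26, 4.16 and 6.13, the RevErbbeta runs 5.37, 5.90 and 4.48, and BirA 1.43. At 146.3 kb the RevErbalpha runs read 4.62, 5.62 and 1.92, the RevErbbeta runs 4.99, 6.14 and 5.19, and BirA 0.48. In both, the RevErbalpha runs spread more widely than the RevErbbeta runs. At 122.5 kb the RevErbalpha runs read 5.12, 5.16 and 3.11, the RevErbbeta runs 4.52, 5.31 and 3.31, and BirA 0.74. At 103.4 kb the RevErbalpha runs read 5.24, 7.10 and 2.75, the RevErbbeta runs 4.39, 6.53 and 1.61, and BirA 1.92. Run 3 of each protein, which is shallow, was the lowest at these last sites and held no whole tag there.

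At 8 of the 9 sites the RevErbalpha and RevErbbeta runs overlapped. At 1, that at 102.8 kb, every RevErbbeta run was above every RevErbalpha run. The shares of all common sites with and without overlap are not given here, so these counts do not set the Spred1 sites apart. RevErbbeta was higher at 6 of the 9 sites, against 66.1% of all common sites, and the median log2 difference of RevErbalpha minus RevErbbeta was -0.15, against -0.29 over all. The largest difference toward RevErbbeta was at 146.3 kb, with 4.05 ± 1.91 for RevErbalpha and 5.44 ± 0.61 for RevErbbeta (mean and SD of 3 runs). The largest toward RevErbalpha was at 103.4 kb, with 5.03 ± 2.18 for RevErbalpha and 4.18 ± 2.47 for RevErbbeta. At that site RevErbbeta run 3 read 1.61, below the BirA value of 1.92, while at the other 8 sites all 6 runs were above BirA. The RevErbalpha runs were closest to each other at 102.8 kb, where RevErbalpha read 4.41, 4.40 and 4.30 and RevErbbeta 5.40, 5.18 and 4.75, although 2 of those RevErbalpha runs held about 1 tag there. Few tags stand behind the shallow runs: over the 9 sites RevErbalpha runs 2 and 3 held medians of about 2 and 3 tags and RevErbbeta run 3 about 2, against 12 in RevErbalpha run 1 and 15 and 33 in RevErbbeta runs 1 and 2. With the deeper runs alone the median difference was -0.945. The same value over all common sites is not given here, so it does not set the Spred1 sites apart. The order of the proteins at single sites is therefore not settled by these runs.

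**Figure D1:**
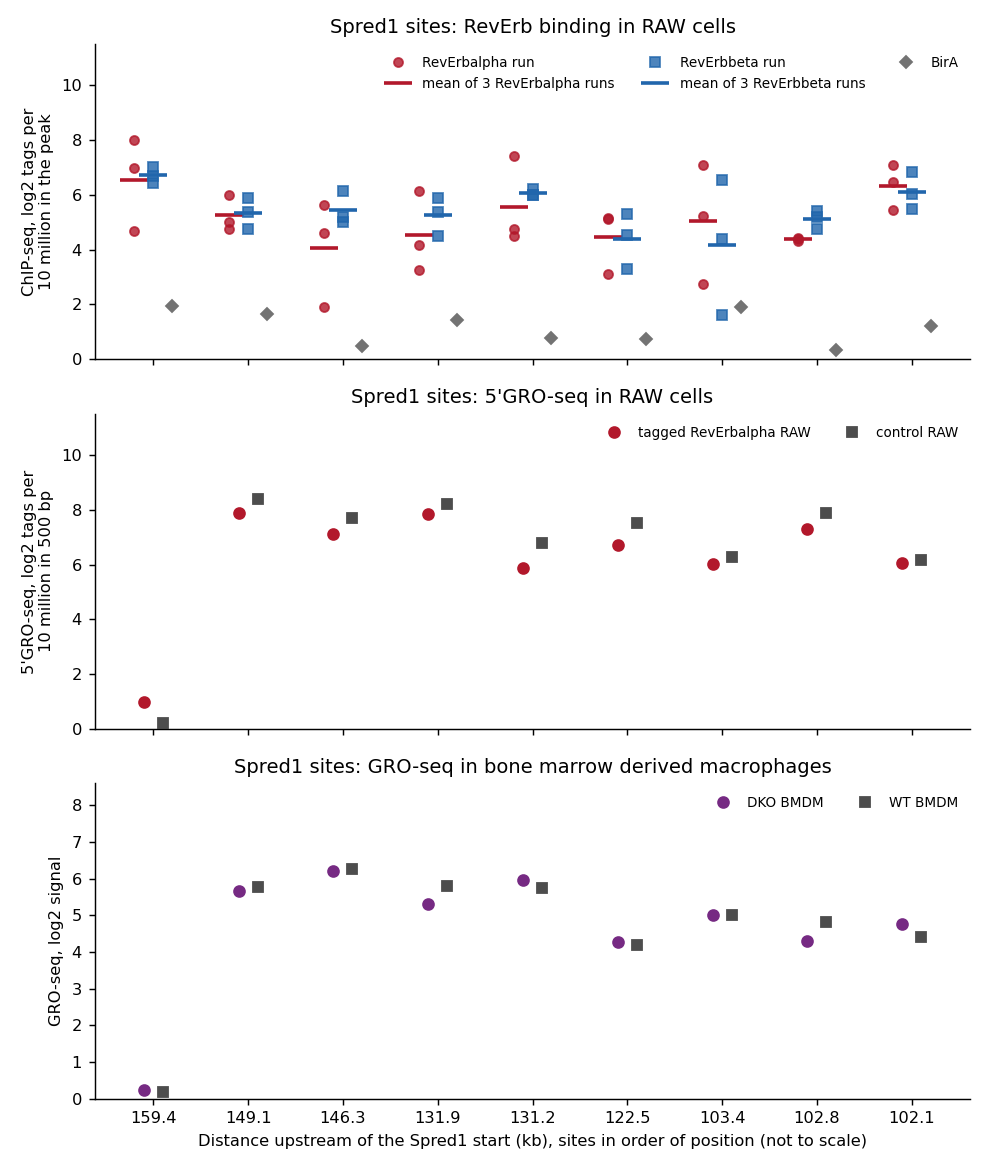
Log2 values at the 9 Spred1 sites in order of position, labelled by distance upstream of the gene start (kb): ChIP-seq runs of RevErbalpha, RevErbbeta and BirA with the mean of 3 runs as a bar (top), 5'GRO-seq in tagged RevErbalpha and control RAW cells (middle), and GRO-seq in DKO and WT macrophages (bottom). The farthest site has the highest mean binding and is nearly silent in both RNA assays. The other 8 are transcribed, and tagged RevErbalpha lies below control at all 8.

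The 8 enhancer sites were among the more transcribed common sites, and most of them were weakly bound. In control RAW cells their 5'GRO-seq values ran from 6.18 to 8.40 (log2 tags per 10000000 in 500 bp, median 7.615), against a median of 6.295 at the 548 other intergenic enhancer sites, and the lowest of them stood at percentile 51.0 of all common sites. The most transcribed was at 149.1 kb (percentile 90.1), followed by those at 131.9 kb (percentile 87.4) and 102.8 kb (percentile 82.1). Higher 5'GRO-seq signal at weakly bound sites is not particular to Spred1. Among common sites of other genes, the median control value was 6.495 in the lowest binding group and 5.615 in the highest. In GRO-seq of bone marrow derived macrophages, another cell, WT values at the 8 sites ran from 4.195 to 6.265, with a median of 5.39 against 3.09 at the other intergenic enhancer sites. The highest there was the site at 146.3 kb (percentile 95.6), and the lowest of the 8 the site at 122.5 kb (percentile 60.6). The farthest site held no whole 5'GRO-seq tag in either library and had GRO-seq values of 0.25 in DKO and 0.19 in WT. It thus had the highest mean binding of the 9 and was the least transcribed. The binding rank holds for the mean of all runs: in the deep RevErbalpha run this site read 4.68, against 5.43 at 102.1 kb. Other sites of its class are usually transcribed, with a median control 5'GRO-seq value of 7.30 at the 300 others.

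**Figure D2:**
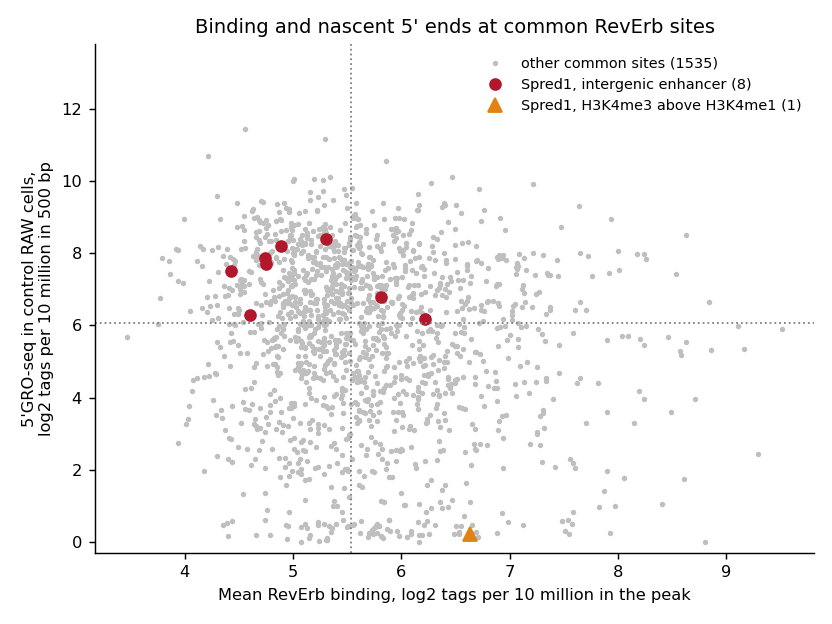
Mean RevErb binding (x axis, log2 tags per 10000000 in 157 bp) against 5'GRO-seq in control RAW cells (y axis, log2 tags per 10000000 in 500 bp) at all common sites, with the Spred1 sites in colour and dotted lines at the medians of all sites. The 8 enhancer sites of Spred1 lie above the median of transcription and 6 of them left of the median of binding, and the remaining site lies at the bottom right.

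Gain of tagged RevErbalpha was compared with control RAW cells to ask whether nascent 5' ends at RevErb sites differ with it. At Spred1 the signal was lower with tagged RevErbalpha at 8 of the 9 sites, where 62.6% of all common sites were lower, and the 8 were the enhancer sites. The differences were modest: 0 of the 9 sites was lower by 1 or more on the log2 scale, where 20.0% of all common sites were, and 0 was higher by 1 or more, where 4.92% were. Adding 10 in place of 1 before the logarithm shrinks differences at sites with few tags. The share of all common sites lower by 1 or more was then 11.7%, and the count at Spred1 was still 0. The median log2 difference was -0.52 over the 9 sites, -0.23 over all common sites and -0.20 over the other intergenic enhancer sites. Summed over the 9 sites the signal was 1050 tags per 10000000 with tagged RevErbalpha and 1520 in control cells, a ratio of 0.695. The counting interval of that log2 ratio was -0.65 to -0.42, from about 758 tags with tagged RevErbalpha and 2832 in control cells. Each condition is 1 library, and such intervals cover counting error only, as PCR copies are not separate molecules.

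Among close neighbours at the far end, the site at 149.1 kb read 7.88 with tagged RevErbalpha and 8.40 in control cells, a log2 difference of -0.52 (95% counting interval -0.78 to -0.28). The site at 146.3 kb read 7.13 with tagged RevErbalpha and 7.71 in control cells, a difference of -0.58 (-0.92 to -0.27). These sites are 2726 bp apart and differed by almost the same amount. In the middle, the site at 131.9 kb read 7.85 with tagged RevErbalpha and 8.21 in control cells (-0.36, interval -0.62 to -0.11). Its neighbour at 131.2 kb read 5.87 with tagged RevErbalpha and 6.79 in control cells, and its difference of -0.92 (-1.47 to -0.46) was the largest of the 9. The site at 122.5 kb, which had the lowest mean binding, read 6.73 with tagged RevErbalpha and 7.52 in control cells. It had the second largest difference, -0.79 (-1.17 to -0.43). Both intervals overlap those of the other 6 enhancer sites, so the sites cannot be put in a firm order.

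At the near end, the site at 103.4 kb read 6.02 with tagged RevErbalpha and 6.29 in control cells, a difference of -0.27 with an interval of -0.79 to 0.21. The site at 102.8 kb read 7.30 with tagged RevErbalpha and 7.88 in control cells (-0.58, interval -0.90 to -0.28). The site at 102.1 kb read 6.06 with tagged RevErbalpha and 6.18 in control cells (-0.12, interval -0.64 to 0.36). The interval lay below 0 at 6 of the 9 sites, as it did at 34.1% of all common sites. Intervals narrow with more tags, and the Spred1 sites held more: medians of 76 with tagged RevErbalpha and 341 in control cells, against 38 and 122 over all common sites. These shares are thus not like for like. The interval held 0 at 103.4 and 102.1 kb, which had 46 and 47 tags with tagged RevErbalpha and the fewest of the 8 in control cells, 144 and 133. At the farthest site the deposited values were 1.0 with tagged RevErbalpha and 0.23 in control cells, but neither library held a whole tag there and the difference was not detectable at this depth.

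The 5'GRO-seq differences can be set beside those of other sites with like mean binding. That mean includes shallow runs, some without a whole tag at single sites, so the grouping is rough. The 5 Spred1 sites in the lowest binding group had a median difference of -0.58, with 5 of 5 lower. The 304 other sites of that group had a median of -0.035, with 52.3% lower. These groups were not matched for transcription: the median control 5'GRO-seq value was 7.71 at the 5 sites and 6.495 at the 304. In the group above the lowest, the Spred1 site at 149.1 kb had -0.52, and the 308 other sites a median of -0.125. In the group below the highest, the 2 Spred1 sites at 131.2 and 102.1 kb had -0.92 and -0.12. The 307 other sites of that group had a median of -0.36. In the highest group the 308 other sites had -0.56, but the farthest Spred1 site held no whole tag and cannot be compared. The 97 other intergenic enhancer sites farther than 100 kb from their gene start had a median of -0.22, with 63.9% lower, close to the -0.20 of all other intergenic enhancer sites. Relative to the median of all common sites, the Spred1 median was -0.29 and 7 of 9 sites were lower, against 49.8% of all common sites. Sites of the same stretch share 1 pair of libraries and are not replicates of one another.

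**Figure D3:**
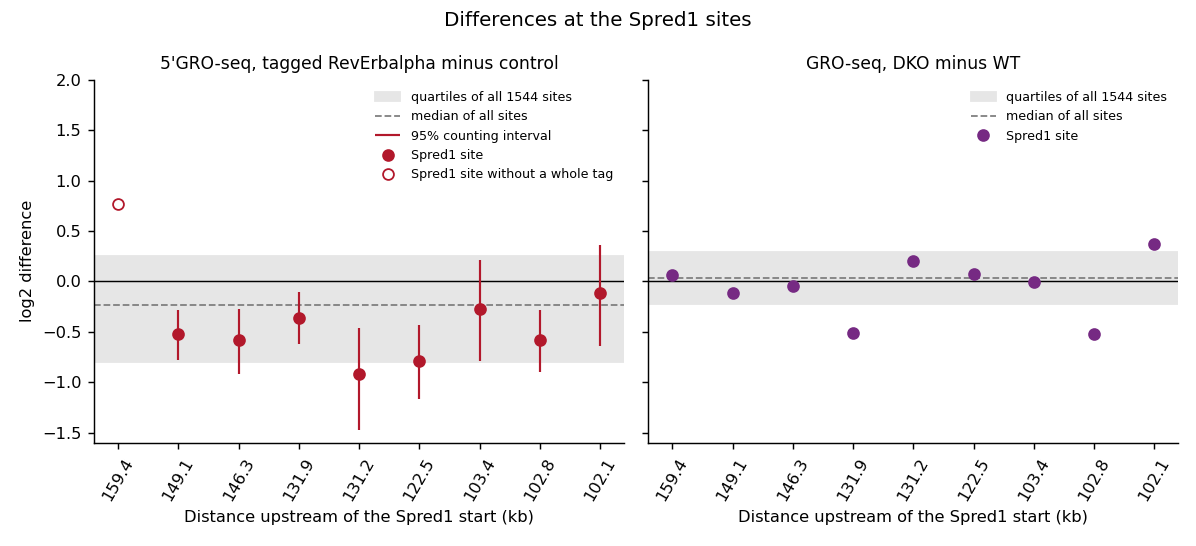
Log2 differences at the 9 Spred1 sites, labelled by distance upstream of the gene start (kb): 5'GRO-seq of tagged RevErbalpha minus control RAW cells with 95% counting intervals (left; the open point has no whole tag in either library) and GRO-seq of DKO minus WT macrophages (right). Grey bands run from the lower to the upper quartile of all 1544 common sites; on the left the 8 enhancer sites lie below 0, and on the right 4 of the 9 sites lie above 0 and 5 below.

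Loss of both RevErbs was compared with WT bone marrow derived macrophages. At the Spred1 sites GRO-seq showed no common direction: the DKO value was above WT at 4 sites and below it at 5, and the median log2 difference was -0.01, against 0.03 over all common sites, of which 47.2% were lower. None of the 9 sites was lower or higher by 1 or more, where 2.20% and 3.37% of all common sites were. Summed over the 9 sites the linear signal in DKO was 0.95 of that in WT.

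Differences in this assay varied among the closest neighbours at the near end and in the middle, and lay within 0.07 of each other at 149.1 and 146.3 kb. At the near end the sites 544 and 679 bp apart read 5.01 in DKO and 5.02 in WT at 103.4 kb, 4.295 in DKO and 4.82 in WT at 102.8 kb, and 4.78 in DKO and 4.405 in WT at 102.1 kb. Their differences of -0.01, -0.525 and 0.375 hold both the lowest and the highest of the 9. In the middle, the site at 131.9 kb read 5.30 in DKO and 5.81 in WT (-0.51), while its neighbour at 131.2 kb, 781 bp away, read 5.96 in DKO and 5.76 in WT (0.20). The differences at the other enhancer sites were -0.115 at 149.1 kb, with 5.66 in DKO and 5.775 in WT, -0.045 at 146.3 kb, with 6.22 in DKO and 6.265 in WT, and 0.075 at 122.5 kb, with 4.27 in DKO and 4.195 in WT. No tag count and no separate runs are given for these columns, so the values carry no error. The range of the differences among the near-end neighbours, 0.90, was wider than any single difference at the 9 sites. The site at 131.2 kb, with the largest 5'GRO-seq difference in RAW cells, was among the sites higher in DKO, and the site at 102.8 kb, lower in 5'GRO-seq, had the lowest difference of DKO minus WT.

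The Spred1 gene itself (ID NM_033524) had a high GRO-seq signal and did not differ between genotypes beyond the spread between runs. Its gene-level GRO-seq values were 12.78 and 12.74 in the DKO runs and 12.75 and 13 in the WT runs on the log2 scale. The runs overlapped: DKO run 1 lay between the WT runs, and DKO run 2 just below both. Both DKO runs lay below both WT runs at 10.0% of gene IDs and above both at 18.4%. The log2 difference was -0.115, a ratio of 0.923, against a median of 0.035 over the 1220 gene IDs of the table. The SD between runs was 0.03 for DKO and 0.18 for WT, and the difference moved between -0.24 without WT run 1 and 0.01 without WT run 2. Spred1 ranked 70 of 1220 gene IDs by mean level (percentile 94.2), where the median level was 9.885; these levels are not divided by gene length. By the size rule used here, a difference of 0.5 or more with runs that do not overlap, Spred1 was not called, as most genes were not: 1.97% of gene IDs were called higher in DKO and 0.738% lower. Gene values for RAW cells are not in the table, so the 5'GRO-seq difference at the sites cannot be set beside a change of the gene in the same cells.

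The genes whose 4 gene-level runs were closest to Spred1, by Euclidean distance on the log2 scale, were Map4k3 (distance 0.159), a kinase of the MAP kinase kinase kinase kinase family, Nptn (0.166), a cell adhesion protein, Phip (0.173), Elmo1 (ID NM_198093, 0.248), a regulator of Rac in phagocytosis, and Dyrk1a (0.255), a protein kinase. The measure is set mostly by the level, and each of them also had a small difference between genotypes, from -0.14 at Phip to -0.005 at Nptn.

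Of 69 listed genes of the cascade, its inhibitors and its target genes, 17 had a common site, and 0 of these 17 were called in either direction. With 1.97% of all gene IDs called higher and 0.738% lower, a count of 0 among so few does not set them apart. Their median log2 difference was 0.05, against 0.035 over all gene IDs, with a range of -0.14 to 0.385. Spry1 and Spry2, which encode Sprouty inhibitors related to Spred1, had 1 site each. Spry1 read 7.33 and 7.64 in the DKO runs and 7.70 and 7.05 in the WT runs, and Spry2 read 8.26 and 8.14 in DKO and 7.99 and 8.31 in WT. The largest differences were at Dusp1, a MAP kinase phosphatase (10.04 and 10.63 in DKO, 10.09 and 9.81 in WT), Fos, a target of ERK signalling (9.84 and 10.62 in DKO, 9.95 and 9.78 in WT), and Fosl2, a Fos relative (10.86 and 11.20 in DKO, 10.76 and 10.90 in WT). In each of them the genotypes overlapped and DKO run 2 was the highest of the 4. In RAW cells the 27 sites of these 17 genes had a median 5'GRO-seq difference of -0.04, with 14 lower and 5 of them lower by 1 or more. Over all common sites 62.6% were lower and 20.0% lower by 1 or more, so the count past 1 was near the general share. The single sites of Spry1 and Spry2 had differences of -1.40 and -1.52, and their tag numbers are not given here. Other inhibitors of the list did not share this direction. The median differences at sites of the Dusp genes were -0.25 (Dusp1), 0.265 (Dusp4), 0.35 (Dusp6) and 0.89 (Dusp7).

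The 14 other gene names with 4 or more common sites had 4 to 6 sites each, and of their spans only those of Cyth4 (10.4 kb), Lyn (36.4 kb) and Tgm2 (42.4 kb) were shorter than the 57.4 kb of Spred1. Lpp and Reep3, with 6 sites each, spread them over 543.7 and 173 kb. Only Spred1 and Cited2 had every site over 100 kb from the start. By the median 5'GRO-seq difference 4 of the 14 were lower than Spred1: Enpp6 (-1.09), Irf2bpl (-0.71), Gm14005 (-0.70) and Irf2bp2 (-0.665). Each of these had at least 1 site lower by 1 or more, which Spred1 had not. Elmo1 came next after Spred1 with -0.43, and Reep3, a protein of the endoplasmic reticulum, had -0.415. Emp1, a membrane protein, had 0.285 with 0 of 4 sites lower. At the gene level none of the 18 gene IDs of these genes was called in either direction, where 1.97% and 0.738% of all gene IDs were called higher and lower in DKO.

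**Figure D4:**
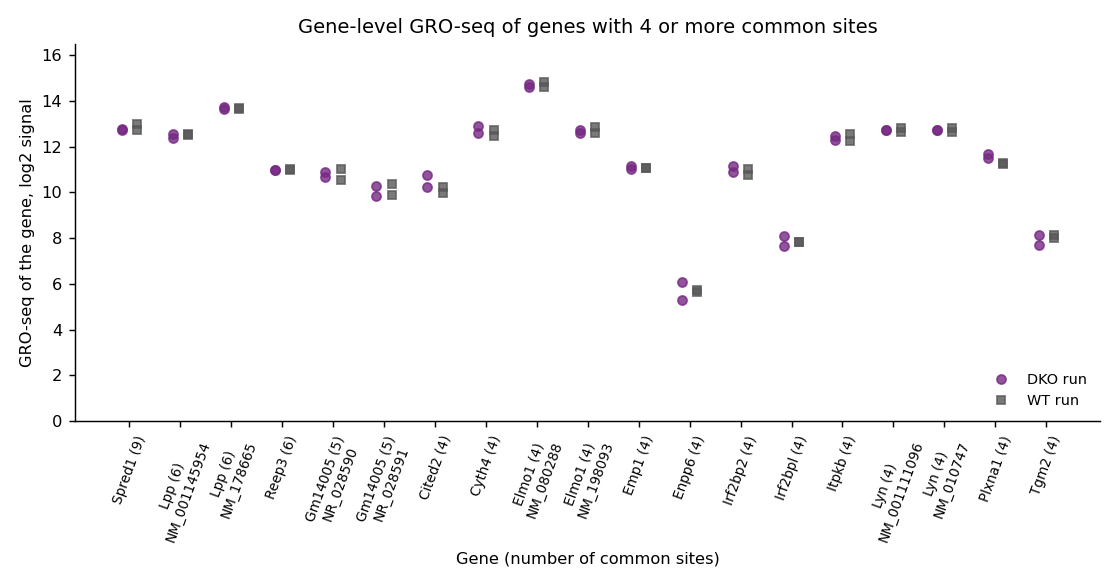
Gene-level GRO-seq (log2 signal) of Spred1 and the 14 other genes with 4 or more common sites, with the number of sites in brackets and 1 point per run (DKO left, WT right); genes with several gene IDs have a column for each. Spred1 is among the highest, and its 2 DKO runs (12.78 and 12.74) overlap its WT runs (12.75 and 13). The values are not divided by gene length.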

How the data were processed

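The study measured biotin ChIP-seq, 5'GRO-seq and GRO-seq in mouse macrophages. Per the submitters' processing notes, the build is mm9 and the tools include HOMER and Bowtie (version 0.12.7). How peaks were called is not given in the sources used here. The authors deposited log2 values: per the file headers, tags per 10000000 for ChIP-seq (157 bp) and 5'GRO-seq (500 bp), and GRO-seq signal with no scale stated at sites. The class of each site, its assigned gene and its distance from the gene's start were also taken from the authors.

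Runs were averaged on the log2 scale, and the means and differences lay within 0.01 of the authors' columns. Low values were not on steps of whole tags (17.6 to 22.5% lay within 0.1 of one), so tag numbers are approximate, taken as the whole part of 2 to the power of the value, minus 1, over the scaling. Counting intervals are exact Clopper-Pearson 95% intervals of the tagged library's share of tags, turned into a log2 ratio. A site was called at a difference of 1, a gene at 0.5 with runs not overlapping. No test was made, since each group has 1 sample. The gene rule and the intervals were tested on simulated data. Python 3.11.15 with numpy 2.4.6, pandas 2.3.3 and scipy 1.17.1 was used. Spred1, the lists and the naming rules (the listed Ras to ERK genes, the 3 with the largest gene difference, genes with 4 or more sites, and the 5 nearest genes by level) were chosen with earlier results of these data known. Spry1 and Spry2 and the 4 many-site genes with lower medians were singled out after their values were seen. H3K9ac, H3K4me1 and PU.1 libraries were not analysed here.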

Additional observations from a re-analysis of the deposited data

How the results depend on the processing

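Of 31 alternative settings over 6 results, 29 left the value within the spread between runs, the counting interval or, for GRO-seq at sites, within 0.1. Where the runs spread widely these limits are loose, so the count of 29 is not a measure of how firm the results are. With 10 in place of 1 added before the logarithm, the median excess of Spred1 binding over BirA was 1.92 in place of 4.27, since adding 10 lifts the low BirA values most. It ranged from 3.875, without RevErbalpha run 2, to 4.41 when each run was left out in turn. The median RevErbalpha minus RevErbbeta difference ranged from -0.45 to 0.02 in the same way. With the deeper runs alone it was -0.945 in place of -0.15, which still lay within the limit of 0.833. The median 5'GRO-seq difference was -0.504 with 10 added, -0.29 relative to the median of all sites and -0.55 without the farthest site, and the count lower by 1 or more was 0 in each. Relative to the median of all sites 7 of 9 were lower, against 49.8% of all common sites. The gene difference ranged from -0.24 to 0.01 with a run left out. Its limit of 0.127 matches the spread of the same runs, which leaving out 1 run per genotype cannot exceed, so those settings could not be labelled as moved. Tag numbers limit the shallow ChIP-seq runs most. No paired analysis was possible because each group has 1 sample and the labels give no replicate numbers. The columns number their runs, but no source used here says whether these are separate preparations or whether equal numbers belong together.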

Other observations

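Other dense stretches of common RevErb sites were looked for with the length set by Spred1, which was itself chosen for its number of sites, so its own rank among them is no result. With the Spred1 span of 57431 bp as the length, 8 other stretches held 4 or more common sites, and the next densest held 5, around Nr1d1, Thra and Msl1 on chromosome 11. The sites of that stretch had a median 5'GRO-seq difference of -2.84 with 5 of 5 lower in tagged RevErbalpha cells, at a median binding of 6.42, against -0.52 and 4.88 at Spred1. A stretch shared by Ap3d1 and Dot1l had -1.755 with 4 of 4 lower, and a stretch shared by Cd9 and Plekhg6 had 0.30 with 1 of 4 lower. The remaining stretches ran from -0.665 (Adssl1 and Inf2) to -0.15 (Lyn), where the median over all common sites was -0.23. The widest 5'GRO-seq differences between dense stretches thus came from a few of them, each measured in 1 pair of libraries.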
